A study of Homo sapiens with 18 samples.

Results

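The DNA replication and G1/S genes are 57 genes named by symbol, which cover origin licensing, the replicative helicase, the sliding clamp and its loader, the polymerases, nucleotide supply, the cyclin E step and chromatin assembly behind the fork. Of the 57, 56 had a probe on the array, and no probe of POLD2 was named in the annotation used here. The filter on dim probes was passed by 54, among 11820 genes in all, and GINS1 and CCNE2 were not above background on any array. Their levels were followed in 6 groups of 3 arrays each, 18 in all.

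The cells were HCC827, a lung adenocarcinoma line that carries an activating EGFR mutation, and its erlotinib-resistant sublines ER3 and T15-2. Erlotinib is a small molecule that inhibits the EGFR kinase. HCC827, ER3 and T15-2 were each given DMSO, the solvent control, or erlotinib at 1 µM for 12 h, in every group after a night of starvation, and total RNA was hybridised to Illumina BeadChips. Separate cultures are not mentioned in the labels for the triplicates, so p-values measure only the spread between these samples, which may be technical. Each subline is a single derivative of HCC827, so its values describe that derivative and not resistance in general. The labelled carcinoma cells carried their defining markers: EPCAM, KRT7, KRT8, KRT18, KRT19 and CDH1 were above background on all 18 arrays. Of the markers of other cells, PTPRC, CDH5, COL3A1 and PDGFRB were above background on 0 arrays, CD3E on 2 and COL1A1 on 6, while CD68 and PECAM1 were above background on 18.

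Replication starts when the origin recognition complex, with CDC6 and CDT1, loads a ring of MCM2 to MCM7 onto DNA in G1. At the G1/S transition cyclin E with CDK2, and CDC7 with DBF4, turn that ring into an active helicase by joining CDC45 and GINS to it, and the polymerases follow behind with the sliding clamp PCNA. Many of these genes are transcribed in a wave before S phase under control of E2F factors, whose release from the retinoblastoma protein lies downstream of growth factor receptors such as EGFR. RNA levels here are those of a whole culture, in which fewer cells in a phase of the cycle and less RNA per cell cannot be told apart.

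Start-proximal promoter sequences are shown for 5 members because the list is known for E2F control. They are the 3 members with a match and the largest falls in HCC827, the member with the largest fall of all, and 1 member with a match that was not called. They come from RefSeq on GRCh38.p14 and run from 250 bases before to 50 bases after the annotated start, 300 bases, 5′ to 3′ on the strand of the gene. MCM6 lies at chr2:135876394-135876693 (minus strand), CDC25A at chr3:48188368-48188667 (minus strand), CDC6 at chr17:40287629-40287928 (plus strand), MCM10 at chr10:13161308-13161607 (plus strand) and LIG1 at chr19:48170295-48170594 (minus strand). Capitals mark exact matches to the E2F-type letters TTTCCCGC, TTTGGCGC, TTTCGCGC and TTTGCCGC, searched on both strands.
MCM6: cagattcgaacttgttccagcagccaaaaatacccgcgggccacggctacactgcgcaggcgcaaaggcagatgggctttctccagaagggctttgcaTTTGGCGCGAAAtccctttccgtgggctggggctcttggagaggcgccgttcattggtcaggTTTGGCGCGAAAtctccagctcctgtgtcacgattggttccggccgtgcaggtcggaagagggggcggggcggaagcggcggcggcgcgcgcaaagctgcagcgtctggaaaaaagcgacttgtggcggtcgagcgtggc
CDC25A: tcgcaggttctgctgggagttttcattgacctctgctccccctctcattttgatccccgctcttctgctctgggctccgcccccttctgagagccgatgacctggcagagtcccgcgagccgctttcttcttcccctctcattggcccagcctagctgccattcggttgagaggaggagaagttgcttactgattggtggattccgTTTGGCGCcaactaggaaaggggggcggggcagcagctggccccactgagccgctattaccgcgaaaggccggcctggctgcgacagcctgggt
CDC6: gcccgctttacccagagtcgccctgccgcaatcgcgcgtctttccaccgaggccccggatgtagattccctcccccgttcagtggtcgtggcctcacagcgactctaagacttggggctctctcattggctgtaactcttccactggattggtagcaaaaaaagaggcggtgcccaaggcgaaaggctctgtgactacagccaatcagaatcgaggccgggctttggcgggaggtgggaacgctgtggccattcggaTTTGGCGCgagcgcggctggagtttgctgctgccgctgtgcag
MCM10: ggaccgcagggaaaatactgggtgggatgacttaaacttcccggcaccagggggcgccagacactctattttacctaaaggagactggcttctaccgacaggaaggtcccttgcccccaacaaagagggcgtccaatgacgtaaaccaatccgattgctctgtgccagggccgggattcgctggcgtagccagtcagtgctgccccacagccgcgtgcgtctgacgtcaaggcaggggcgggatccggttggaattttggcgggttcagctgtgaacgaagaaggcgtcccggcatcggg
LIG1: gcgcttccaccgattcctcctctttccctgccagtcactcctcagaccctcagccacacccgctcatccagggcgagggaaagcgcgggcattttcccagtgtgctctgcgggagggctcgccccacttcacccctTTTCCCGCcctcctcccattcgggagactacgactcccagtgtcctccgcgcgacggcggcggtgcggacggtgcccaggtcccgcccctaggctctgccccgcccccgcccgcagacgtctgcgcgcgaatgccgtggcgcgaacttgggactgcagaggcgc

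The MCM6 window held 4 matches in 2 overlapping pairs, at -152 and -148 and at -90 and -86 bases from the start, each pair made of TTTGGCGC and, on the other strand, TTTCGCGC. CDC25A had TTTGGCGC at -44, CDC6 had it at 7 and LIG1 had TTTCCCGC at -114. In the MCM10 window none of these letters was found. Only the spellings listed above were searched, so a window without a match may hold other E2F-type letters. The MCM10 and CDC6 windows hold TTTGGCGG, which differs from TTTGGCGC in its last letter and was not searched. RefSeq windows were at hand for 48 members, and 21 of them (43.8%) held an E2F-type match, against 1164 of 35116 promoters (3.31%). Those are all promoters with a full window, whether or not the gene was tested here, and they were not matched for GC content. CCAAT, the letters bound by NFY, occurred in 27 member windows (56.2%, against 34.6% of all), and TTTGAA, the CHR-type letters known from G2/M genes, in 5 (10.4%, against 15.2%). A match describes the letters only, and no binding was measured here.

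Levels are given below as normalized log2 signals on single arrays, in replicate order. Different probes are not compared with each other, since their signals depend on the probe. Changes are differences of group means on the log2 scale ± SE from limma, adjusted by the Benjamini-Hochberg method over all 11820 genes, and a gene was called at an adjusted p below 0.05.

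Most replication genes were lower with erlotinib in HCC827: 38 of 54 members fell and 14 did not pass, while MCM8 and ORC6 were called higher by their brighter probe and lower by their dimmer one, so no direction is given for them. Over all genes 37.7% were called, 18.5% lower and 19.2% higher. The median change of the members was -0.71, against 0.01 for all genes, and the largest falls, in MCM10, CDC45, RRM2 and MCM6, were between 3.02-fold and 4.04-fold. In T15-2, 33 members fell and 0 rose, where 8.43% of all genes were called, 4% lower and 4.43% higher, and the median change of members was -0.44. In ER3, 11 members fell and 0 rose, where 3.76% of all genes were called, 1.74% lower and 2.01% higher, and the median was -0.21. The 3 responses share no arrays.

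The same pattern was read from single arrays. In HCC827 all 3 erlotinib arrays lay below all 3 DMSO arrays for 42 members (25% of all genes) and above them for the brighter probes of MCM8 and ORC6 (26.2% of all genes). In ER3 the counts were 21 below (9.2% of all genes) and 1 above (10.6%), and in T15-2 41 below (13.4%) and 0 above (14.6%).

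**Figure D1:**
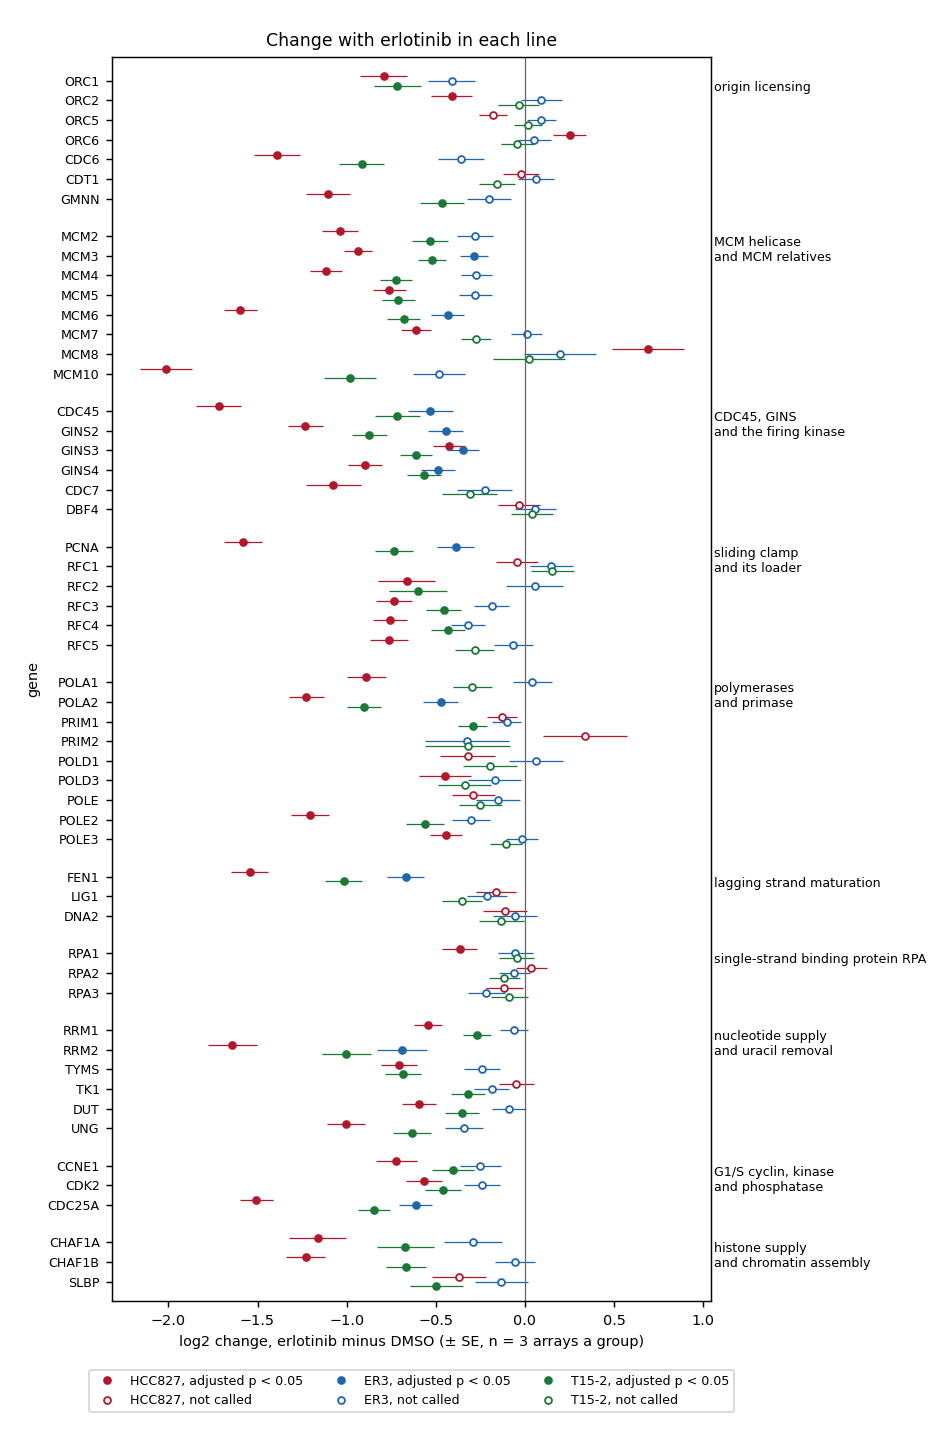
Log2 change with erlotinib (erlotinib minus DMSO, horizontal axis) for the 54 members by role (vertical axis), with 1 point for each of the 3 lines, bars of ± 1 SE and filled points where the adjusted p was below 0.05. The HCC827 points reach furthest to the left, to -2.02 for MCM10, and the ER3 points lie closest to 0 for most members.

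The ER3 count depended on the spread being pooled over all 18 arrays. With ER3 fitted by itself limma called 0 members (21 at an unadjusted p below 0.05), and 5 were called without ER3 DMSO replicate 1, 7 without ER3 erlotinib replicate 1 and 7 without ER3 erlotinib replicate 2. With medians of all probes set equal, a scaling added after seeing the data, the ER3 count was 0 (3 at an unadjusted p below 0.05) and the T15-2 count was 14. That scaling moved the median of all genes to 0.14 in ER3, where members had a median of -0.03, and to 0.12 in T15-2, where they had -0.30.

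Among the licensing genes CDC6, which loads the MCM ring, had the largest fall. In HCC827 it measured 6.21, 5.88 and 6.30 with DMSO and 4.66, 4.82 and 4.75 with erlotinib, and only 1 of the 3 erlotinib arrays was above background. T15-2 arrays had 5.83, 6.10 and 6.02 with DMSO and 5.07, 5.20 and 4.93 with erlotinib. Neither pair of groups overlapped, whereas in ER3 the values of 5.37, 5.42 and 5.62 overlapped with 4.95, 5.00 and 5.39. CDC6 fell by 1.39 ± 0.13 in HCC827 (limma adjusted p = 7.2e-08) and by 0.92 ± 0.13 in T15-2, and its change of -0.36 in ER3 was not called (adjusted p = 0.12). Geminin (GMNN), which holds back CDT1, fell by 1.10 ± 0.12 in HCC827 and by 0.47 ± 0.12 in T15-2. ORC1, the ATPase subunit of the origin recognition complex that varies over the cell cycle, fell by 0.79 and 0.71 in the same lines, and ORC2 fell by 0.41 in HCC827 alone of the 3 comparisons. CDT1 had a change of -0.02 in HCC827 (adjusted p = 0.90).

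All of MCM2 to MCM7 fell in HCC827, with a median change of -0.99. In T15-2, 5 of the 6 fell and the brightest MCM7 probe had -0.27 (adjusted p = 0.053). The second-brightest MCM7 probe was called lower in T15-2, at -0.75 ± 0.12 (limma adjusted p = 0.00070, over probes). The dimmest, above background on 7 of 18 arrays, had 0.04. In ER3, MCM3 and MCM6 fell, by 0.28 and 0.43, and 5 of the 6 had an unadjusted p below 0.05. MCM6 measured 11.35, 11.25 and 11.32 with DMSO and 9.79, 9.67 and 9.67 with erlotinib in HCC827. The ER3 arrays of MCM6 had 10.49, 10.53 and 10.38 with DMSO and 10.13, 9.90 and 10.07 with erlotinib. Those of T15-2 had 10.76, 10.78 and 10.94 with DMSO and 10.24, 10.21 and 9.99 with erlotinib. Every erlotinib array lay below every DMSO array of its line, and HCC827 went from the highest of the 6 groups to the lowest. The fall was 1.60 ± 0.09 in HCC827 (a fold of 3.02, limma adjusted p = 1.4e-10) and 0.68 ± 0.09 in T15-2.

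MCM10, which helps the assembled helicase to open DNA, had the largest change of any member. Its levels in HCC827 were 8.12, 7.66 and 8.04 with DMSO and 5.86, 5.84 and 6.07 with erlotinib. In ER3 they were 7.04, 7.29 and 7.07 against 6.51, 6.70 and 6.76, and in T15-2 7.53, 7.85 and 7.83 against 6.95, 6.91 and 6.40. The groups did not overlap in any line, and the fall was 4.04-fold in HCC827 (2.02 ± 0.15 on the log2 scale, limma adjusted p = 2.8e-09) and 1.97-fold in T15-2. In ER3 the change of -0.48 ± 0.15 was not called (adjusted p = 0.072). A dimmer MCM10 probe, above background on 14 of 18 arrays, was called lower there, at -0.52 ± 0.14 (limma adjusted p = 0.045, over probes).

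CDC45, which joins the MCM ring when an origin fires, fell in all 3 lines. It measured 9.47, 9.26 and 9.45 with DMSO and 7.79, 7.63 and 7.60 with erlotinib in HCC827. For ER3 the values were 8.39, 8.72 and 8.43 against 8.20, 7.76 and 7.99, and for T15-2 8.79, 8.82 and 8.79 against 8.24, 8.19 and 7.81. No pair of groups overlapped, and HCC827 with DMSO stood above the DMSO arrays of both sublines. The fall was 1.72 ± 0.13 in HCC827, 0.53 ± 0.13 in ER3 and 0.72 ± 0.13 in T15-2 (limma adjusted p = 3.2e-09, 0.025 and 0.0016).

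The 3 measured GINS subunits, which bridge helicase and polymerase, fell in every line, and GINS was the sub-complex with all its tested members called in ER3. GINS2 measured 10.65, 10.76 and 10.88 with DMSO and 9.51, 9.59 and 9.49 with erlotinib in HCC827. The ER3 values were 9.60, 9.31 and 9.40 against 8.95, 9.12 and 8.90, and the T15-2 values 10.71, 10.66 and 10.47 against 9.72, 9.72 and 9.79. Erlotinib arrays lay below DMSO arrays in each line, and the ER3 groups both lay near or below the HCC827 erlotinib group. GINS2 fell by 1.23, 0.44 and 0.87 in HCC827, ER3 and T15-2. GINS3 fell by 0.43, 0.35 and 0.61 and GINS4 by 0.90, 0.49 and 0.57, and the response of GINS3 in T15-2 minus that in HCC827 was -0.18, which was not called (adjusted p = 0.37). The kinase CDC7 fell by 1.07 ± 0.15 in HCC827 and had -0.23 and -0.31 in ER3 and T15-2 (adjusted p = 0.44 and 0.24). Its partner DBF4 was above background on 4 of 18 arrays, so no change of it could be measured.

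PCNA, the clamp that tethers polymerases, fell 2.99-fold in HCC827. Its arrays there had 10.86, 10.78 and 10.78 with DMSO and 9.16, 9.22 and 9.30 with erlotinib. In ER3 they had 9.72, 10.06 and 9.63 against 9.49, 9.21 and 9.55, and in T15-2 10.47, 10.41 and 10.39 against 9.65, 9.71 and 9.69. The gap between groups was wide in HCC827 and T15-2 and narrow in ER3, where the lowest DMSO array was 9.63 and the highest erlotinib array 9.55. The falls were 1.58 ± 0.11, 0.39 ± 0.11 and 0.73 ± 0.11 in HCC827, ER3 and T15-2 (limma adjusted p = 9.7e-10, 0.047 and 0.00030), and the ER3 call passed in 9 of 29 alternative settings.

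Of the RFC subunits, which load PCNA, RFC2 to RFC5 fell in HCC827, by 0.66 to 0.76. RFC1, the large subunit, had -0.04 (adjusted p = 0.81). RFC4 measured 10.55, 10.30 and 10.46 with DMSO and 9.65, 9.60 and 9.79 with erlotinib in HCC827, against 10.06, 10.27 and 10.10 and then 9.91, 9.76 and 9.81 in ER3. In T15-2 its values were 10.22, 10.38 and 10.47 with DMSO and 9.94, 9.97 and 9.86 with erlotinib. RFC4 groups did not overlap in any line, and its change was called in HCC827 (-0.76) and T15-2 (-0.43) but not in ER3 (-0.32, adjusted p = 0.070). By their brightest probes RFC2, RFC3 and RFC4 fell in T15-2. The dimmer RFC2 probe was not called in HCC827, at -0.29 ± 0.15, or in T15-2, at -0.40 ± 0.15 (limma adjusted p = 0.13 and 0.10, over probes). By their brightest probes 0 RFC subunits were called in ER3 by limma, with 1 at an unadjusted p below 0.05. The second-brightest RFC3 probe was called lower in ER3, at -0.44 ± 0.10 (limma adjusted p = 0.026, over probes). The dimmest RFC3 probe, above background on 11 of 18 arrays, had 0.41 there (adjusted p = 0.18).

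Among the polymerases 5 of 9 tested members fell in HCC827, and these were mostly accessory subunits. POLA2, the second subunit of polymerase alpha, which starts each strand with primase, measured 9.11, 9.10 and 9.36 with DMSO and 7.93, 8.13 and 7.84 with erlotinib in HCC827. In ER3 it had 8.40, 8.54 and 8.35 against 8.04, 7.84 and 7.99, and in T15-2 8.66, 8.62 and 8.71 against 7.81, 7.69 and 7.78. Groups did not overlap in any line, and the falls were 1.23 ± 0.10, 0.47 ± 0.10 and 0.90 ± 0.10 (limma adjusted p = 1.1e-08, 0.013 and 1.3e-05). POLE2, the second subunit of the leading strand polymerase epsilon, fell by 1.21 in HCC827 and by 0.56 in T15-2. The catalytic subunits differed: POLA1 fell by 0.89 in HCC827, while POLD1 (-0.32, adjusted p = 0.10) and POLE (-0.29, adjusted p = 0.066) were not called.

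POLA1 measured 6.01, 6.42 and 6.30 with DMSO and 5.34, 5.46 and 5.26 with erlotinib in HCC827. In ER3 its arrays had 5.64, 5.88 and 5.69 against 5.75, 5.91 and 5.68, and in T15-2 6.76, 6.74 and 6.56 against 6.32, 6.50 and 6.37. The ER3 groups overlapped, and the HCC827 and T15-2 groups did not, although the T15-2 change of -0.29 was not called (adjusted p = 0.10). POLE3, a histone-fold subunit of polymerase epsilon, measured 11.67, 11.55 and 11.60 with DMSO and 11.20, 11.08 and 11.22 with erlotinib in HCC827. Its ER3 values were 11.10, 11.25 and 11.03 against 11.16, 11.02 and 11.15, and its T15-2 values 11.30, 11.47 and 11.41 against 11.19, 11.41 and 11.26. Both sublines overlapped, and POLE3 fell by 0.44 ± 0.09 in HCC827. The primase subunit PRIM1 fell in T15-2 (by 0.29, adjusted p = 0.032) and had -0.13 in HCC827.

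FEN1, the flap endonuclease that trims Okazaki fragments, fell in every line. In HCC827 it measured 10.76, 11.03 and 10.89 with DMSO and 9.29, 9.48 and 9.28 with erlotinib. The ER3 arrays had 10.01, 9.74 and 9.91 against 9.24, 9.24 and 9.17, and the T15-2 arrays 10.75, 10.56 and 10.66 against 9.47, 9.67 and 9.79. All 3 pairs of groups were apart, and with erlotinib the ER3 arrays lay slightly below those of HCC827. The falls were 1.54, 0.67 and 1.02 (SE 0.10 each, limma adjusted p = 9.6e-10, 0.0016 and 6.6e-06). LIG1, the ligase that seals the fragments, had -0.16 in HCC827 (adjusted p = 0.27), and DNA2 had -0.11 (adjusted p = 0.51). The LIG1 window shown above holds E2F-type letters, and a link between letters and change was not tested.

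Of the 3 subunits of RPA, the single-strand binding protein, 1 was called. By its brighter probe RPA1 fell by 0.37 in HCC827, and RPA2 and RPA3 were not called in any line with erlotinib. The dimmer RPA1 probe had 0.02 ± 0.10 in HCC827 and was called lower in T15-2, at -0.32 ± 0.10 (limma adjusted p = 0.90 and 0.049, over probes). The line in which RPA1 fell therefore depended on the probe. RPA3 measured 11.77, 11.62 and 11.78 with DMSO and 11.61, 11.55 and 11.67 with erlotinib in HCC827, which overlapped. In ER3 it had 11.84, 11.88 and 11.74 against 11.31, 11.70 and 11.79, and in T15-2 11.91, 11.93 and 11.86 against 11.83, 11.85 and 11.76. The 95% interval of the RPA3 change in HCC827 was -0.33 to 0.10.

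In nucleotide supply RRM2, the regulated subunit of ribonucleotide reductase, fell most. It measured 8.14, 8.10 and 8.06 with DMSO and 6.53, 6.33 and 6.51 with erlotinib in HCC827. In ER3 the values were 7.32, 7.31 and 6.90 against 6.72, 6.09 and 6.65, and in T15-2 7.70, 7.72 and 7.58 against 6.53, 6.77 and 6.70. No groups overlapped within a line, and the 3 erlotinib groups lay in about the same range. The falls were 1.64, 0.69 and 1.00 (SE 0.14 each, limma adjusted p = 2.4e-08, 0.011 and 0.00020). RRM1, the catalytic subunit, measured 11.27, 11.26 and 11.19 against 10.66, 10.70 and 10.73 in HCC827, 11.00, 11.02 and 10.93 against 10.86, 10.96 and 10.95 in ER3, and 11.36, 11.13 and 11.25 against 11.01, 10.99 and 10.93 in T15-2. Its groups overlapped in ER3, and it fell by 0.54 in HCC827 and 0.27 in T15-2.

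Thymidylate synthase (TYMS) fell by 0.71 in HCC827 and 0.68 in T15-2. The uracil-DNA glycosylase UNG fell by 1.00 and 0.64, and the dUTPase DUT by 0.59 and 0.35. Thymidine kinase TK1 was the exception, with -0.05 in HCC827 (adjusted p = 0.74) and a fall of 0.32 in T15-2 (adjusted p = 0.048). By their brightest probes all 6 genes of this group fell in T15-2, against 5 in HCC827 and 1 in ER3. The second-brightest DUT probe was called lower in ER3, at -0.38 ± 0.09, and not in T15-2, at -0.20 ± 0.09 (limma adjusted p = 0.029 and 0.21, over probes). The dimmest DUT probe was called in neither subline.

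By its brighter probe CDC25A, the phosphatase that activates CDK2, fell in all lines. In HCC827 it measured 7.15, 7.21 and 7.21 with DMSO and 5.73, 5.69 and 5.63 with erlotinib. ER3 arrays had 6.98, 6.77 and 6.85 against 6.09, 6.21 and 6.45, and T15-2 arrays 7.38, 7.42 and 7.43 against 6.58, 6.55 and 6.56. The groups were apart in each line, and T15-2 was the highest line under both treatments. Its falls were 1.51, 0.61 and 0.85 (SE 0.09 each, limma adjusted p = 1.9e-10, 0.0011 and 1.2e-05), and the ER3 call was the call of that line with the lowest adjusted p among the members.

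Cyclin E1 (CCNE1), the partner of CDK2, measured 6.38, 6.52 and 6.55 against 5.85, 5.82 and 5.63 in HCC827. In ER3 it had 6.73, 6.54 and 6.87 against 6.73, 6.35 and 6.31, and in T15-2 7.28, 7.32 and 7.11 against 6.74, 6.94 and 6.82. The ER3 groups overlapped, and every T15-2 erlotinib array was above every HCC827 DMSO array. CCNE1 fell by 0.72 in HCC827 and 0.40 in T15-2. CDK2 measured 9.28, 9.25 and 9.38 against 8.79, 8.52 and 8.90 in HCC827, 8.83, 8.89 and 8.94 against 8.59, 8.64 and 8.70 in ER3, and 8.79, 8.85 and 8.84 against 8.18, 8.40 and 8.51 in T15-2. It fell by 0.57 and 0.46 in HCC827 and T15-2. Its groups did not overlap in ER3 either, where the change of -0.24 was not called (adjusted p = 0.18). A dimmer CDK2 probe was called lower in ER3, at -0.51 ± 0.10 (limma adjusted p = 0.013, over probes).

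CHAF1A and CHAF1B, subunits of the factor that deposits histones behind the fork, fell by 1.16 and 1.23 in HCC827 and by 0.67 each in T15-2. CHAF1B measured 6.81, 6.83 and 6.77 against 5.70, 5.47 and 5.55 in HCC827. In ER3 it had 5.52, 5.71 and 6.07 against 5.75, 5.73 and 5.66, and in T15-2 6.40, 6.33 and 6.53 against 5.78, 5.80 and 5.67. The ER3 groups overlapped at about the level of the other lines under erlotinib. CHAF1A had 6.51, 6.45 and 6.77 against 5.32, 5.42 and 5.50 in HCC827, 5.47, 6.15 and 5.22 against 5.33, 5.30 and 5.34 in ER3, and 6.52, 6.68 and 6.41 against 5.79, 5.78 and 6.02 in T15-2. In ER3 DMSO 1 array of CHAF1A, replicate 2, stood above the other 2.

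SLBP, which binds the stem-loop of histone mRNAs, measured 8.34, 8.61 and 8.68 against 7.94, 8.16 and 8.43 in HCC827. In ER3 it had 8.60, 8.19 and 8.41 against 8.43, 8.40 and 7.98, and in T15-2 8.95, 8.94 and 9.07 against 8.22, 8.61 and 8.63. Groups overlapped in HCC827 and ER3 and not in T15-2, where SLBP fell by 0.50 (adjusted p = 0.045). A dimmer probe of SLBP was called lower in HCC827, with -1.13 ± 0.12, so the absence of a call there was specific to the brighter probe.

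**Figure D2:**
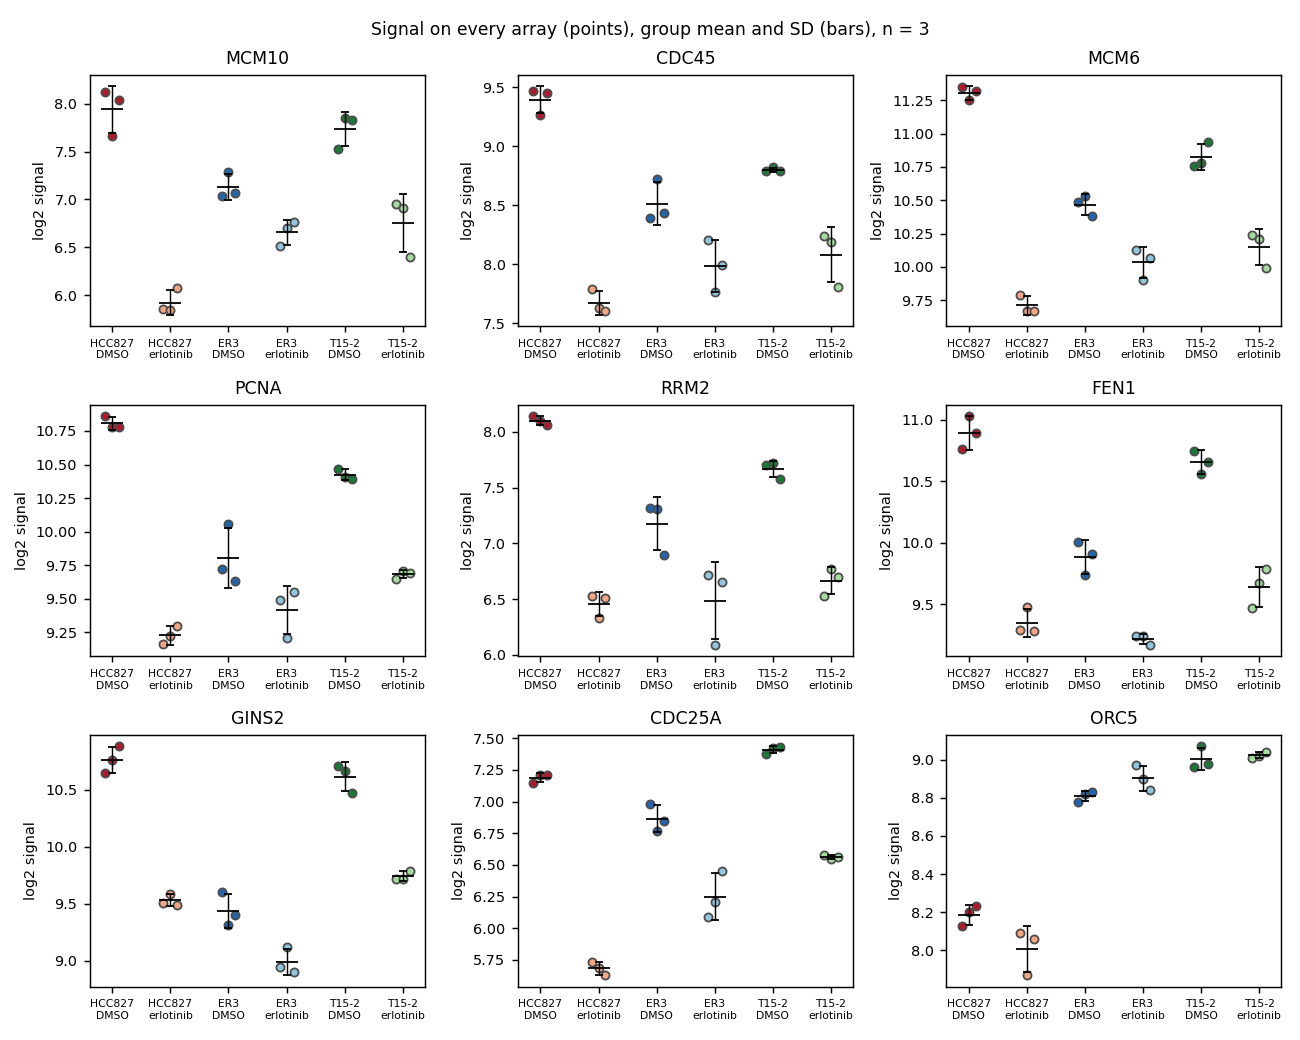
Normalized log2 signal (vertical axis) of selected members on each of the 18 arrays, grouped by line and treatment, with points for single arrays and bars for the mean of 3. MCM10 spans 5.84 to 8.12 over all arrays, with its lowest values in HCC827 under erlotinib and its highest in HCC827 with DMSO.

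MCM8 and ORC6, the members counted as higher in HCC827, gave opposite answers from their 2 probes. For MCM8, a relative of the MCM ring that acts in recombination repair, the brighter probe measured 10.72, 11.03 and 10.98 with DMSO and 11.38, 11.63 and 11.79 with erlotinib. The dimmer probe measured 6.69, 7.03 and 6.82 against 6.25, 6.21 and 6.17. Neither pair of groups overlapped, and the changes were 0.69 ± 0.20 and -0.63 ± 0.12 (limma adjusted p = 0.011 and 0.00041, the second over probes). For ORC6, the smallest origin recognition subunit, the brighter probe measured 13.87, 13.82 and 13.81 against 14.05, 14.06 and 14.13, and the dimmer probe 8.86, 8.76 and 9.20 against 8.12, 7.83 and 8.08. Here too the groups did not overlap for either probe, and the changes were 0.25 ± 0.09 and -0.93 ± 0.14 (adjusted p = 0.040 and 2.7e-05). The brighter ORC6 probe fell out of the calls in 8 of 29 alternative settings. Which transcripts each probe detects was not tested, so no direction of MCM8 or ORC6 is given.

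In the sublines the brighter MCM8 probe had 11.65, 10.82 and 11.48 against 11.40, 11.73 and 11.41 in ER3, and 11.42, 11.16 and 11.25 against 11.06, 11.02 and 11.81 in T15-2. Both brighter probes deviated on ER3 DMSO replicate 2, where MCM8 was lowest of its group, and on T15-2 erlotinib replicate 3, where it was highest. Those arrays had the extreme scores, 0.52 and -0.46, on the first component of the spread within groups, which carried 24.5% of that spread, and its part in these values was not tested. The brighter ORC6 probe had 14.10, 13.90 and 14.09 against 14.20, 14.05 and 14.00 in ER3, and 13.98, 13.95 and 13.91 against 13.87, 13.75 and 14.08 in T15-2. The dimmer ORC6 probe had 8.37, 8.77 and 8.40 against 8.09, 8.10 and 8.18 in ER3, and 8.95, 8.90 and 8.77 against 8.09, 8.37 and 7.88 in T15-2. It was called lower in T15-2, at -0.76 ± 0.14, and not in ER3, at -0.39 ± 0.14 (limma adjusted p = 0.0020 and 0.12, over probes). The dimmer MCM8 probe was called in neither subline.

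Several probes passed the filter for 21 members. Tested probe by probe over 15759 probes, 17 of the second-brightest probes were called lower in HCC827 and 0 higher, and opposite calls arose for MCM8 and ORC6. The share called over all probes was not counted. By the brightest probe of each gene, 18.5% of all genes were called lower there and 19.2% higher. Second probes of members that were not called were lower for SLBP, for PRIM1 (-0.50 ± 0.12, adjusted p = 0.0031) and for DNA2 (-0.54 ± 0.20, adjusted p = 0.048). Calls in the sublines depended on the probe too. For CDK2, MCM10, RFC3 and DUT in ER3, and MCM7, RPA1 and ORC6 in T15-2, a dimmer probe was called lower where the brightest was not. The reverse held for the second-brightest probe of CDC25A in both sublines and of DUT, PRIM1 and RFC2 in T15-2. These tests were added after seeing the data.

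**Figure D3:**
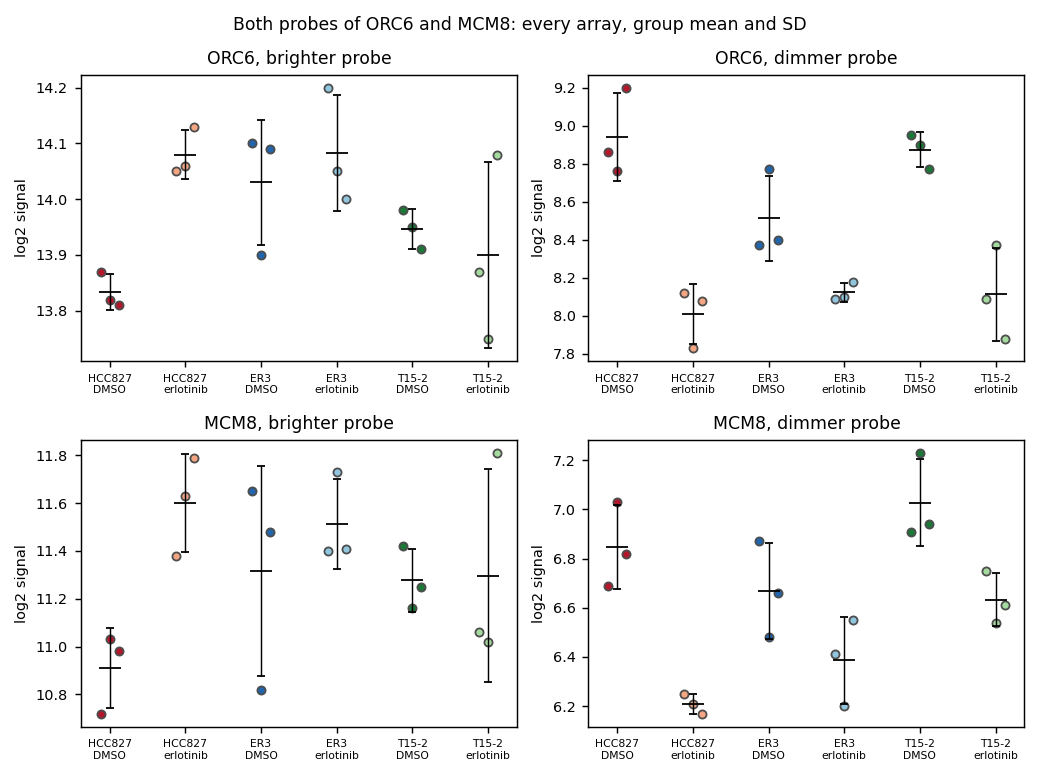
Normalized log2 signal (vertical axis) on the 18 arrays for the brighter and the dimmer probe of ORC6 and of MCM8, with points for single arrays and bars for group means. In HCC827 the brighter probes rise with erlotinib, by 0.25 and 0.69, and the dimmer probes fall, by 0.93 and 0.63.

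Of the 38 members that fell in HCC827, each had a smaller change in both sublines except GINS3, whose fall was 0.43 in HCC827 and 0.61 in T15-2. The median share of the HCC827 change was 26.5% in ER3 and 56.6% in T15-2. The change was more negative in T15-2 than in ER3 for 37 of the 38, and the brighter probe of RPA1 was the exception. These members were chosen on their HCC827 change, so the shares are a description. Tested directly, the response of ER3 was less negative than that of HCC827 for 33 of 54 members and more negative for 0, against 22% of all genes called, 11.6% in that direction and 10.4% in the other. For T15-2 the counts were 16 and 0, against 13.1% of all genes called, 7.17% less negative and 5.9% more negative. Both tests share the HCC827 arrays.

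The differences were largest for MCM10, at 1.54 ± 0.21 in ER3 and 1.04 ± 0.21 in T15-2 (limma adjusted p = 3.6e-05 and 0.0026). PCNA and CDC45 followed in ER3, at 1.19 each, and CDC45 and MCM6 in T15-2, at 1.00 and 0.92. All 6 of MCM2 to MCM7 differed in ER3 and 4 of the 6 in T15-2. GINS3 did not pass in either subline, with 0.08 (adjusted p = 0.69) and -0.18 (adjusted p = 0.37). The T15-2 count was 8 without T15-2 erlotinib replicate 2 and 10 without T15-2 DMSO replicate 2, and 26 with medians of all probes set equal, where the median of all genes stood at 0.24.

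Between the sublines, 5796 of all 11820 genes had the more negative change in T15-2, with a median difference of 0.004. Among the members 50 of 54 had it, with a median difference of -0.24. None passed in limma (15 at an unadjusted p below 0.05), in a comparison where 0.0338% of all genes were called, and without ER3 DMSO replicate 3 the count was 1. The lowest p belonged to CHAF1B, with -0.61 ± 0.16 (adjusted p = 0.26). Over the 54 members the changes correlated with r = 0.74 between HCC827 and ER3, 0.84 between HCC827 and T15-2 and 0.85 between ER3 and T15-2, given as a description only, since the genes depend on each other and all arrays were normalized together.

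**Figure D4:**
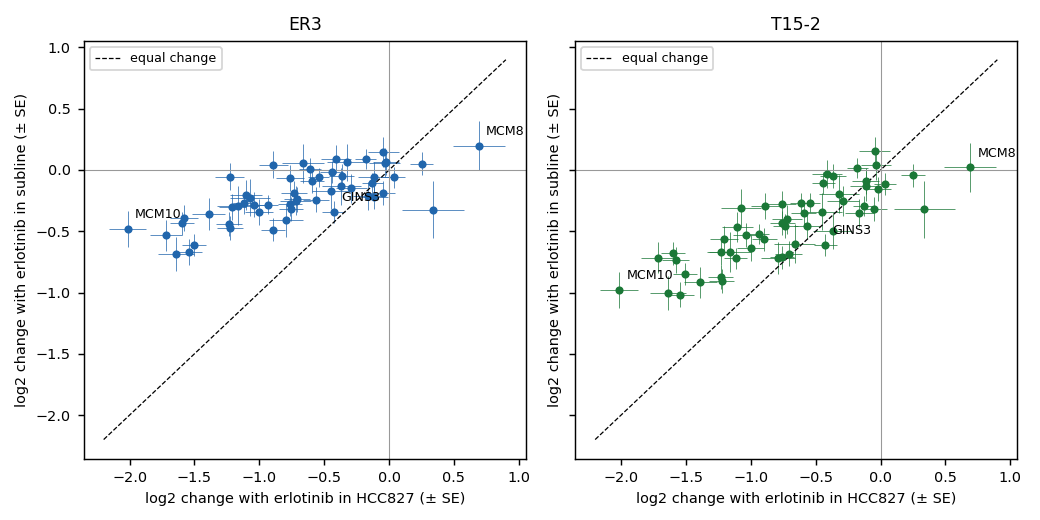
Log2 change with erlotinib in ER3 (left) and T15-2 (right) on the vertical axis against that in HCC827 on the horizontal axis, 1 point for each of the 54 members with bars of ± 1 SE and a dashed line of equal change. Most points with a fall in HCC827 lie above the line, nearer to 0 in ER3, where MCM10 is at -0.48 against -2.02.

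With DMSO, ER3 differed from both other lines in the level of most replication genes. In ER3, 35 of 54 members were lower than in HCC827 and 2 higher, against 35.1% of all genes called, 19% lower and 16% higher, with a median of -0.40. The 3 arrays of ER3 were all below those of HCC827 for 38 members (24.2% of all genes) and all above for 3 (20.5%). By this measure GINS2 (-1.33 ± 0.10), CHAF1B (-1.03 ± 0.11) and FEN1 (-1.01 ± 0.10) were lowest relative to HCC827. All 6 nucleotide supply genes, 3 of 3 GINS subunits, 4 of 5 RFC subunits and 4 of 6 of MCM2 to MCM7 were lower. For GINS2 and CHAF1B the DMSO arrays given above were all lower in ER3 than in HCC827, with no overlap.

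ORC5 and RPA2 were higher in ER3. ORC5, a subunit of the origin recognition complex, measured 8.13, 8.20 and 8.23 in HCC827, 8.78, 8.82 and 8.83 in ER3 and 8.96, 9.07 and 8.98 in T15-2 with DMSO, and 8.09, 7.87 and 8.06, 8.97, 8.90 and 8.84, and 9.01, 9.02 and 9.04 with erlotinib in the same order. HCC827 stood below both sublines under each treatment, by 0.62 ± 0.08 for ER3 and 0.82 ± 0.08 for T15-2 with DMSO (limma adjusted p = 5.7e-06 and 1.7e-07). RPA2 measured 10.14, 10.23 and 10.16 in HCC827, 10.45, 10.50 and 10.43 in ER3 and 10.39, 10.21 and 10.22 in T15-2 with DMSO. With erlotinib RPA2 had 10.05, 10.35 and 10.24, then 10.46, 10.39 and 10.35, then 10.21, 10.16 and 10.10. Its ER3 DMSO arrays lay above those of both other lines, by 0.28 ± 0.09 over HCC827 (adjusted p = 0.016).

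T15-2 with DMSO did not stand to one side of HCC827: 9 members were lower and 8 higher, with a median of -0.01, where 32.2% of all genes were called, 16.3% lower and 15.9% higher. Its arrays were all below those of HCC827 for 17 members (24.1% of all genes) and all above for 16 (24.3%). CDC45 (-0.59 ± 0.13), POLA2 (-0.53 ± 0.10) and MCM6 (-0.48 ± 0.09) were lowest, and POLD3, CDK2, GINS4, RRM2, PCNA and CHAF1B were also lower. ORC5, CCNE1 (0.75 ± 0.12) and RFC2 (0.59 ± 0.16) were highest, and MCM7, POLA1, POLE, SLBP and MCM2 were also higher. RFC2 measured 7.70, 7.30 and 7.90 in HCC827, 7.66, 8.16 and 7.71 in ER3 and 8.54, 8.07 and 8.04 in T15-2 with DMSO, and 6.97, 6.99 and 6.95, 7.83, 7.76 and 8.12, and 7.76, 7.59 and 7.49 with erlotinib. The T15-2 DMSO arrays of RFC2 were above all those of HCC827 and overlapped with those of ER3. With medians of all probes set equal, 13 members were lower and 2 higher, with the median of all genes at -0.12.

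ORC5, MCM7 and RFC2 lie on chromosome 7, where 46.7% of 555 tested genes were higher in T15-2 than in HCC827 and 36% were higher in ER3. Of the 5 tested members there, 3 were called higher in T15-2 and 1 in ER3. The part of this chromosome in the members' values was not tested.

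Against ER3, T15-2 with DMSO had 29 of 54 members higher and 0 lower, against 33.4% of all genes called, 15.5% lower and 17.8% higher, with a median of 0.36. Its arrays were all above those of ER3 for 35 members (23.7% of all genes) and all below for 1 (20.7%). GINS2 differed most, at 1.18 ± 0.10 (limma adjusted p = 2.3e-08), before POLA1 (0.95 ± 0.11) and CHAF1A (0.92 ± 0.16). Of MCM2 to MCM7, 5 were higher, as were 5 of the 6 nucleotide supply genes and 3 of the 5 RFC subunits. The 3 comparisons of lines share their DMSO arrays.

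**Figure D5:**
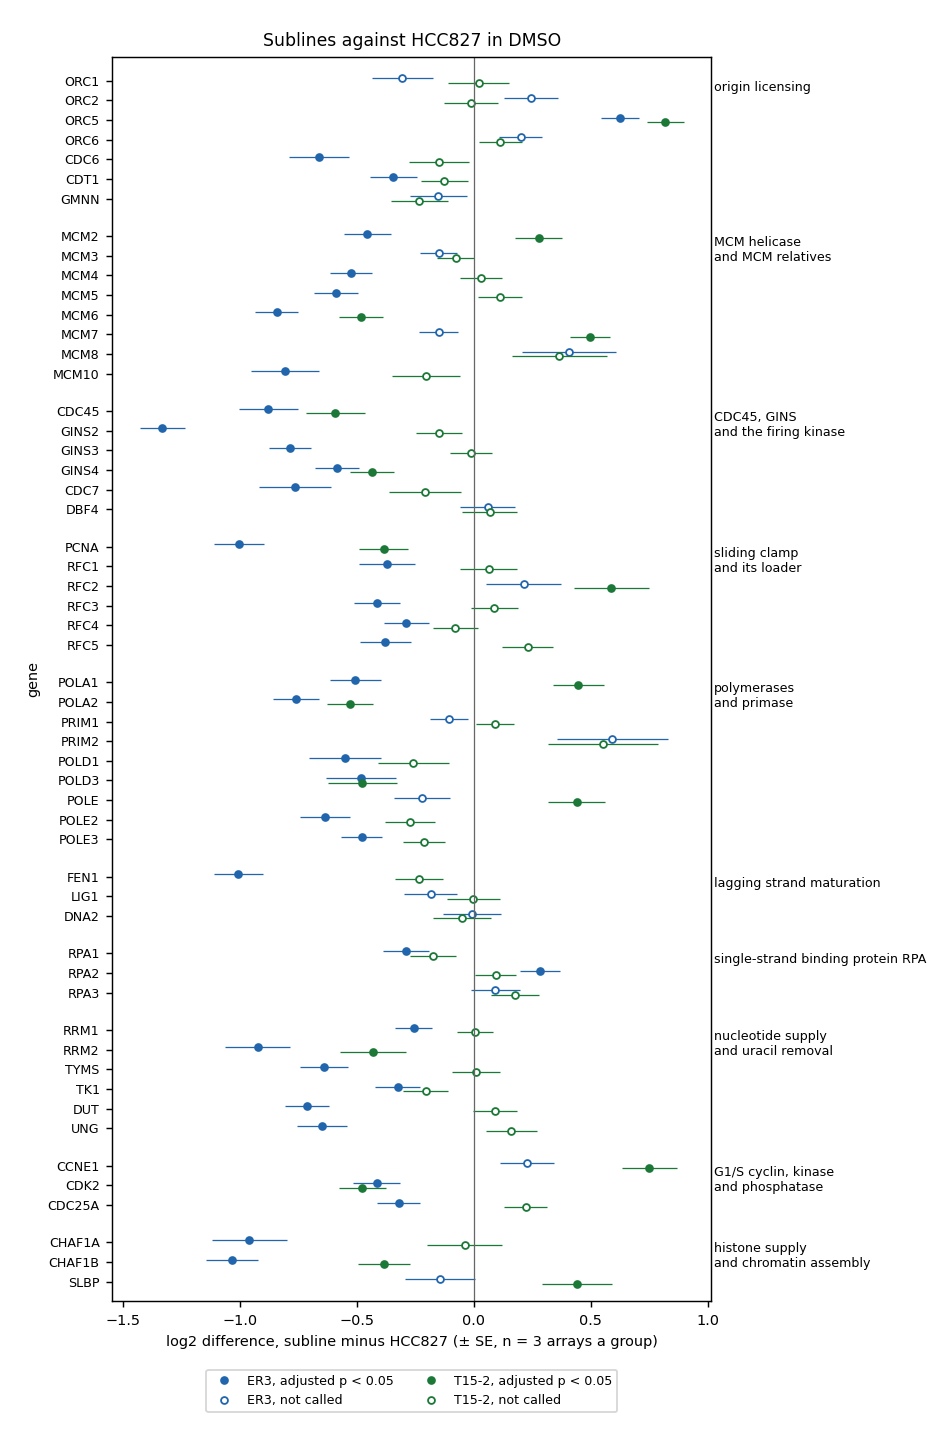
Log2 difference between lines with DMSO (horizontal axis, ER3 minus HCC827 and T15-2 minus HCC827) for the 54 members by role (vertical axis), with bars of ± 1 SE and filled points where the adjusted p was below 0.05. Most ER3 points lie to the left of 0, down to -1.33 for GINS2, and the T15-2 points lie on both sides, up to 0.82 for ORC5.

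Under erlotinib, a comparison added after seeing the data, ER3 had 4 members lower and 17 higher than HCC827, against 44.6% of all genes called, 23% lower and 21.6% higher. T15-2 had 3 lower and 27 higher, against 42.6% called, 20.7% lower and 21.9% higher. The medians were 0.06 and 0.27. GINS2 and GINS3 stayed lower in ER3, by 0.54 and 0.70, and CDT1 and TK1 were lower in both sublines. MCM2, MCM3, MCM4, MCM6 and MCM7 were higher in ER3, by 0.30 to 0.50, and higher in T15-2, by 0.34 to 0.84. Over the 6 groups HCC827 with DMSO held the highest mean for 27 members and T15-2 with DMSO for 19, while HCC827 with erlotinib held the lowest for 29 and ER3 with erlotinib for 13. The medians of the members' means were 8.82 and 8.02 in HCC827, 8.50 and 8.26 in ER3 and 8.84 and 8.40 in T15-2, with DMSO and erlotinib.

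Among the members with a promoter window, those with an E2F-type match numbered 20 among the tested genes, of which 16 fell in HCC827 with a median change of -0.97. Those without numbered 26, of which 17 fell with a median of -0.58. MCM10, CDC45, RRM2, PCNA and FEN1 are among the largest falls, and their windows all lack these exact letters. MCM6, also among the largest falls, has them in its window. Other spellings of E2F-type letters were not searched. No test was made of this difference, and matches and changes are given side by side only.

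Other replication genes, 27 of 32 tested, had 20 lower and 2 higher in HCC827, with a median of -0.45, where 18.5% of all genes were called lower and 19.2% higher. UHRF1, which guides maintenance methylation to new DNA, fell by 1.90 ± 0.10, the chromatin remodeller HELLS by 1.37 ± 0.18 and the fork protection factor TIPIN by 1.32 ± 0.17. RRM2B, the alternative small subunit of ribonucleotide reductase, rose by 0.39 ± 0.09, and POLD4, a small subunit of polymerase delta, rose by 0.72 ± 0.11. In T15-2, 10 of the 27 fell and 0 rose, where 4% of all genes were called lower and 4.43% higher. In ER3 UHRF1 and CDCA7 fell, where 1.74% of all genes were called lower.

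Genes of mitosis and G2/M, 34 tested, had 10 lower and 3 higher in HCC827, with a median of -0.08. The share called in either direction was near the 37.7% of all genes (18.5% lower and 19.2% higher). In ER3 limma called 0 of them (5 at an unadjusted p below 0.05), and in T15-2 0 (8 at an unadjusted p below 0.05), where 3.76% and 8.43% of all genes were called, with medians of 0.02 and 0.03. The replication genes had medians of -0.71, -0.21 and -0.44 in HCC827, ER3 and T15-2. These counts stand side by side, and the difference between the lists was not tested.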

How the data were processed

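Biotin-labelled cRNA of HCC827, ER3 and T15-2 cells was hybridised to Illumina BeadChips, 18 arrays in 6 groups of 3. The deposited signal table holds a bead summary intensity per probe and array, without visible background subtraction, and a detection p-value deposited beside each intensity. The authors' second deposited table holds intensity values with the same distribution on every array. The values came from BeadStudio, per the submitters' processing notes (no version is given there). The neqc function of limma 3.58.1 (R 4.3.3) corrected the background from negative controls that it infers through detection p, added 16, quantile-normalized and took log2. A probe was kept where its detection p was below 0.05 on 3 or more of 18 arrays (19931 probes), and 15759 had 1 gene symbol in the platform annotation, updated through RefSeq. The brightest kept probe stood for its gene, which gave 11820 genes.

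A single limma model with 6 group means and eBayes gave 9 planned comparisons and 2 added after seeing the data (lines under erlotinib). Calls used a Benjamini-Hochberg adjusted p below 0.05. Between 15698 and 17869 probes were above background per array, and arrays of a group correlated at 0.991 to 0.997. Precision is limited by the number of arrays, and the SE of a member's erlotinib change in HCC827 had a median of 0.10 and ranged from 0.079 to 0.24. The script was tested on simulated data. Members, lists and comparisons were chosen with earlier results of these data known. All 57 members could be named, and array values are given for the largest called changes and the brightest member of each role group. Alternatives covered background correction, scaling, the authors' processed values, filters, the mean of a gene's probes, the arrays in the fit, trend and robust eBayes, a replicate block, a minimum of 2-fold and fits without single arrays. Same-numbered arrays did not deviate together in every pair of any comparison, so the number was not treated as a pairing.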

Additional observations from a re-analysis of the deposited data

Results flagged for a closer look

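Differences of response between lines passed the test and are given here as values. The erlotinib response of ER3 differed from that of HCC827 for 33 of 54 members, and that of T15-2 for 16, all less negative in the subline. In ER3 the difference was 1.54 for MCM10, 1.19 for PCNA and 1.19 for CDC45 on the log2 scale. In T15-2 it was 1.04 for MCM10, 1.00 for CDC45 and 0.92 for MCM6. Both sets of differences share the HCC827 arrays.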

How the results depend on the processing

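Of 267 calls of members over the 11 comparisons, 171 held in every alternative counted. Left out of that count were the 2-fold minimum and the second probes of ORC6 and MCM8. For erlotinib the calls that held were 35 of 40 in HCC827, 0 of 11 in ER3 and 14 of 33 in T15-2. With a 2-fold minimum the counts were 18, 0 and 2 for erlotinib in HCC827, ER3 and T15-2. Between lines in DMSO they were 4 (ER3 against HCC827), 0 (T15-2 against HCC827) and 1 (T15-2 against ER3), under erlotinib 0 (ER3) and 3 (T15-2), and for the responses of ER3 and T15-2 minus that of HCC827 6 and 2. The minimum itself removes smaller changes. A fit of the ER3 arrays alone, with fewer arrays, called 0. Median scaling over all probes, added after seeing the data, gave 0 for ER3, 14 for T15-2 and 26 for the response of T15-2 minus that of HCC827, where the medians of all genes were 0.14, 0.12 and 0.24, and the cause was not tested. Median scaling over the kept probes, the planned form, moved no count by over 1.5 times.

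Leaving out each array in turn gave 37 to 41 members for erlotinib in HCC827, 5 to 12 in ER3 and 23 to 33 in T15-2. Between lines in DMSO the ranges were 32 to 39 for ER3 against HCC827, 13 to 19 for T15-2 against HCC827 and 27 to 31 for T15-2 against ER3, and under erlotinib 17 to 22 for ER3 and 24 to 31 for T15-2. For the responses they were 26 to 34 (ER3 minus HCC827), 8 to 18 (T15-2 minus HCC827) and 0 to 1 (T15-2 minus ER3, the 1 without ER3 DMSO replicate 3). The counts that moved by over 1.5 times were 5 for ER3 without ER3 DMSO replicate 1 and 7 without ER3 erlotinib replicate 1 or 2, and 8 and 10 for the response of T15-2 minus that of HCC827 without T15-2 erlotinib replicate 2 and T15-2 DMSO replicate 2. Without both ER3 DMSO replicate 2 and T15-2 erlotinib replicate 3 the erlotinib counts were 41, 13 and 33.

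The replicate numbers did not pair the arrays, and with the replicate number as a block the counts were 41, 8 and 28 for erlotinib in HCC827, ER3 and T15-2, 37, 16 and 29 between lines in DMSO, 32, 15 and 0 for the differences of response and 19 and 28 under erlotinib. A block for the BeadChip was planned and not run, because the chip that held an array is not stated in the sources at hand.

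Among members called in the reported fit, the sign changed only for ORC6 and MCM8 with erlotinib in HCC827, through the choice of probe. Members not called changed sign under other settings too, as for CCNE1 in ER3 against HCC827 with DMSO (-0.06 to 0.31). With the mean of a gene's probes ORC6 had -0.34 with erlotinib in HCC827, and the SLBP response of T15-2 minus that of HCC827 was 0.39. With the second probe, added after seeing the data, ORC6 had -0.93 and MCM8 -0.63 with erlotinib in HCC827. In T15-2 with erlotinib ORC6 had -0.76 and MCM8 -0.40. In DMSO ORC6 was at -0.42 in ER3 against HCC827 and 0.36 in T15-2 against ER3, where MCM8 was also at 0.36, and MCM8 was at 0.42 in T15-2 against HCC827 under erlotinib. Signal over background limits DBF4, GINS1, CCNE2 and, with erlotinib in HCC827, CDC6.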
